A study of Mus musculus with 6 samples.

Results

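Ribosomal protein genes and their named pseudogene entries were examined in 6 RNA sequencing libraries of mouse lung. Members were taken by name: symbols of the form Rpl or Rps with a number and optional letters, with or without the ending -ps and a number, at a mean of at least 1 TPM (the authors' relative abundance unit, corrected for transcript length) over the 6 libraries. Ribosomal S6 kinases and the paralogues with an l in the name were left out. This gave 132 entries of 56980 in the table: 76 genes, and 56 pseudogene entries that belong to 36 parent genes. Before the minimum was applied, 382 names matched, 77 genes and 305 pseudogene entries. Of those 305 entries, 132 were listed at 0 in all libraries and 117 lay above 0 but below the minimum. The 3 members just inside the minimum were Rpl7a-ps11 at 1.0, Rpl17-ps5 at 1.2 and Rps12-ps1 at 1.28 mean TPM, and the 3 entries just outside were Rpl30-ps2 at 0.917, Rps15a-ps4 at 0.868 and Rpl31-ps15 at 0.865. The members were thus chosen by name and on mean TPM, so their levels are a description.

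All lungs came from NSG mice, an immunodeficient strain without mature T, B and natural killer cells, killed at 5 weeks after an orthotopic injection into the fourth mammary fat pad. The Ctrl animals (n = 3 libraries) received cells of the human breast cancer line MDA-MB-231, and the DPP3_KO animals (n = 3) received the same line in which DPP3, encoding dipeptidyl peptidase 3, had been knocked out. The third Ctrl title reads 232 in place of 231 and was taken as the same line. The deletion was made in the human cells, so mouse Dpp3, at 28.3 ± 2.24 TPM (SD, n = 3) in Ctrl and 17.7 ± 3.04 in DPP3_KO, does not check the labels. No label says that each library is a separate mouse, so p-values measure the spread between these libraries only. In bulk lung RNA, fewer cells of a type and less RNA per cell cannot be told apart.

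A ribosome is built from a large and a small subunit, each a set of ribosomal RNAs wrapped by proteins that are needed in near equal number, and the Rpl and Rps genes encode the proteins of the large and the small subunit. Their short, abundant mRNAs begin with a run of pyrimidines, the terminal oligopyrimidine tract, through which translation of the whole set is controlled together. Because these mRNAs are abundant, they have often been copied back into the genome, and the resulting processed pseudogenes have no introns and can differ from the parent mRNA by only a few bases.

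That likeness is the first fact about the members. All 56 pseudogene entries were matched by Ensembl identifier to a transcript of GENCODE release M21 (build GRCm38), and 54 had the same length there as in the deposited table. In 13 entries the stretch aligned with the parent was identical to the parent transcript, and 12 of these lay whole inside it. Another 29 entries had from 99% to under 100% identity, and 14 had less, down to 85.57% (Rpl37-ps1). In 19 entries, including every one of the 12, each stretch of 50 bases also occurred in another annotated transcript. The names are not the annotated types: 48 entries were typed as processed pseudogenes, 5 as protein-coding (Rpl10-ps3, Rpl9-ps6, Rps12-ps3, Rps18-ps5 and Rps18-ps6) and 3 as processed transcripts. The entries lay on 18 chromosomes, only 2 on the chromosome of the parent. The annotation placed 21 inside the span of a protein-coding gene of another name, with 3 of them overlapping an exon of it (Rps18-ps5, Rps18-ps6 and Rps23-ps1). For Rps18-ps5 and Rps18-ps6, themselves typed protein-coding, the genes were Gm11361 and Gm10260 on the same strand. These may be the entries themselves under another name, since only names were compared.

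The 5 Rpl35a entries are shown because 4 of them are the same sequence. Rpl35a encodes a large subunit protein. Rpl35a-ps2 (chr1:181241988-181242320, minus strand, in no protein-coding gene), Rpl35a-ps3 (chr17:29136972-29137304, minus strand, within an intron of Rab44), Rpl35a-ps4 (chr2:108874926-108875258, minus strand, in no protein-coding gene) and Rpl35a-ps6 (chr5:123255481-123255813, minus strand, within an intron of Wdr66) are each 333 bases long and identical to each other over all of them. Each carries the single change G156A, counted from 1 at the A of the parent's start codon. Rpl35a-ps5 carries G156A with A171G and C234T. Positions 136 to 176 of the coding sequence follow, with bases that differ from the parent in capitals.
Rpl35a: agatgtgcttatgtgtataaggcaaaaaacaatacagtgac
Rpl35a-ps2: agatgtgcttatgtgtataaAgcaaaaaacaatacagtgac
Rpl35a-ps3: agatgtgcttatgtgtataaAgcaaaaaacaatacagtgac
Rpl35a-ps4: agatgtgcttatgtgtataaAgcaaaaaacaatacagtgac
Rpl35a-ps6: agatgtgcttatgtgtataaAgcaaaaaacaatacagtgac
Rpl35a-ps5: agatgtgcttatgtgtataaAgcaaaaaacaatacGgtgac

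Rps12 and Rpl31, small and large subunit genes, are shown because entries with a few changed bases were called lower while the identical ones were not. Rps12-ps3 and Rpl31-ps8 are identical to their parents. Rps12-ps10 (chr2:122219993-122220391, plus strand, in no protein-coding gene) differs by C75A, G109A, A231C and C294G, and Rps12-ps19 (chr11:75070814-75071213, minus strand, within an intron of Smg6) has 10 substitutions and 1 gap. Rpl31-ps9 (chr1:129801387-129801764, minus strand, within an intron of Thsd7b) differs by C237T and C363T. Positions 270 to 310 of Rps12 and 217 to 257 of Rpl31 are given, with differing bases in capitals.
Rps12: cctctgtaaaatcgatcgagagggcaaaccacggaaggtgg
Rps12-ps3: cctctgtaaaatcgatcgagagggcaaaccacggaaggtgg
Rps12-ps10: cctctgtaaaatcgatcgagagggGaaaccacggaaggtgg
Rps12-ps19: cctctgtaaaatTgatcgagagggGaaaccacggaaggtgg
Rpl31: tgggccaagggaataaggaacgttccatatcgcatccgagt
Rpl31-ps8: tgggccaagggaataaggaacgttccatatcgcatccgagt
Rpl31-ps9: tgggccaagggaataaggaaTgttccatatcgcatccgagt

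Rps13 and Rps18, both of the small subunit, are shown because an entry was listed near or above the parent. Rps13-ps2 (chr7:88530446-88530898, minus strand, in no protein-coding gene) is identical to Rps13, and Rps13-ps1 (chr8:87047689-87048226, plus strand, in no protein-coding gene) differs by T411C and A429G. The 3 Rps18 entries share the change A337C, and each has 2 or more further substitutions. Positions 400 to 440 of Rps13 and 320 to 360 of Rps18 follow in the same form.
Rps13: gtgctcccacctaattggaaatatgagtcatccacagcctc
Rps13-ps2: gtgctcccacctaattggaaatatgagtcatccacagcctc
Rps13-ps1: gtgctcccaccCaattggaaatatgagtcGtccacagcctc
Rps18: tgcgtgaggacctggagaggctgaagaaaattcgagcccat
Rps18-ps3: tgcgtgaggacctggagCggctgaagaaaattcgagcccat
Rps18-ps5: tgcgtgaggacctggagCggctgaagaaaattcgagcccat
Rps18-ps6: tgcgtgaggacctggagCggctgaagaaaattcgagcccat

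Some of the genes begin with a pyrimidine tract at the annotated start. RefSeq promoter windows (build GRCm38.p6) were matched by symbol for 56 of the 76 genes, with 66 start sites. A C followed by at least 4 pyrimidines (C or T, read on the gene's strand only) began exactly at the start in 19.7% of these 66 starts, in 13 of the 56 genes, against 2.51% of 32851 starts of all genes. Allowing the tract within 5 bases of the start, the shares were 43.9% and 18.3%. The 15 bases before and 15 from the start of 3 such genes are given with the tract in capitals: Rps6, whose product is phosphorylated by the S6 kinases (chr4:86857353-86857382, minus strand), Rpl14 (chr9:120571502-120571531, plus strand) and Rps27 (chr3:90213634-90213663, minus strand). A match describes these letters and is no measurement of translation.
Rps6: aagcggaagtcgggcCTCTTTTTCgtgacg
Rpl14: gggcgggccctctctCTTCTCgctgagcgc
Rps27: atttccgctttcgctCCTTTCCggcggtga

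Facts of the whole series bear on every value. TPM sums to the same total in each library and keeps no depth, and 22904 to 24477 genes were above 0 in a library. Of that total, the club cell secretoglobin Scgb1a1 alone took 7.16 to 10.1% in Ctrl and 21.7 to 28.7% in DPP3_KO. Values are given as deposited and, where a direction depends on it, after median-of-ratios scaling, which sets the typical gene equal between libraries. Over the 15650 genes tested the median log2 change stood at -0.60 as deposited and at -0.03 on that scale. The surfactant gene Sftpc, a marker of alveolar type 2 cells, stood at 14519 TPM or more in all 6 libraries, and of the 4 alveolar type 2 markers 1 (Lamp3) was called lower. All 3 club cell, 3 ciliated cell and 3 cardiac muscle markers listed rose, and all 3 capillary, all 3 alveolar type 1 and 3 of 4 alveolar macrophage markers fell (limma, adjusted p under 0.05); the neutrophil and red cell markers were not called. Their part in the results for ribosomal protein genes was not tested.

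Ribosomal protein genes were among the most abundant mRNAs. Their median level in a library ran from 651 TPM (DPP3_KO 1) to 976 TPM (DPP3_KO 3), with 753, 708 and 811 TPM in the 3 Ctrl libraries and 712 TPM in DPP3_KO 2, against a median over all genes tested of 12.1 mean TPM. The 5 highest by mean TPM were Rps27 (3070), Rpl13a (2392), Rps15 (2325), Rps14 (1974) and Rpl41 (1913), and the 5 lowest were Rps3a3 (5.56), Rpl5 (22.0), Rpl12 (24.1), Rps27rt (39.1) and Rps18 (95.1). Rps27, the highest, was listed at 2213, 2302 and 3037 TPM in Ctrl and 2931, 3409 and 4528 TPM in DPP3_KO. The groups overlapped only through Ctrl 3 at 3037 and DPP3_KO 1 at 2931. Rps3a3, Rps27rt and Rpl37rt are copies of other genes of the set, and without these 3 the genes spanned Rpl5 to Rps27.

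**Figure D1:**
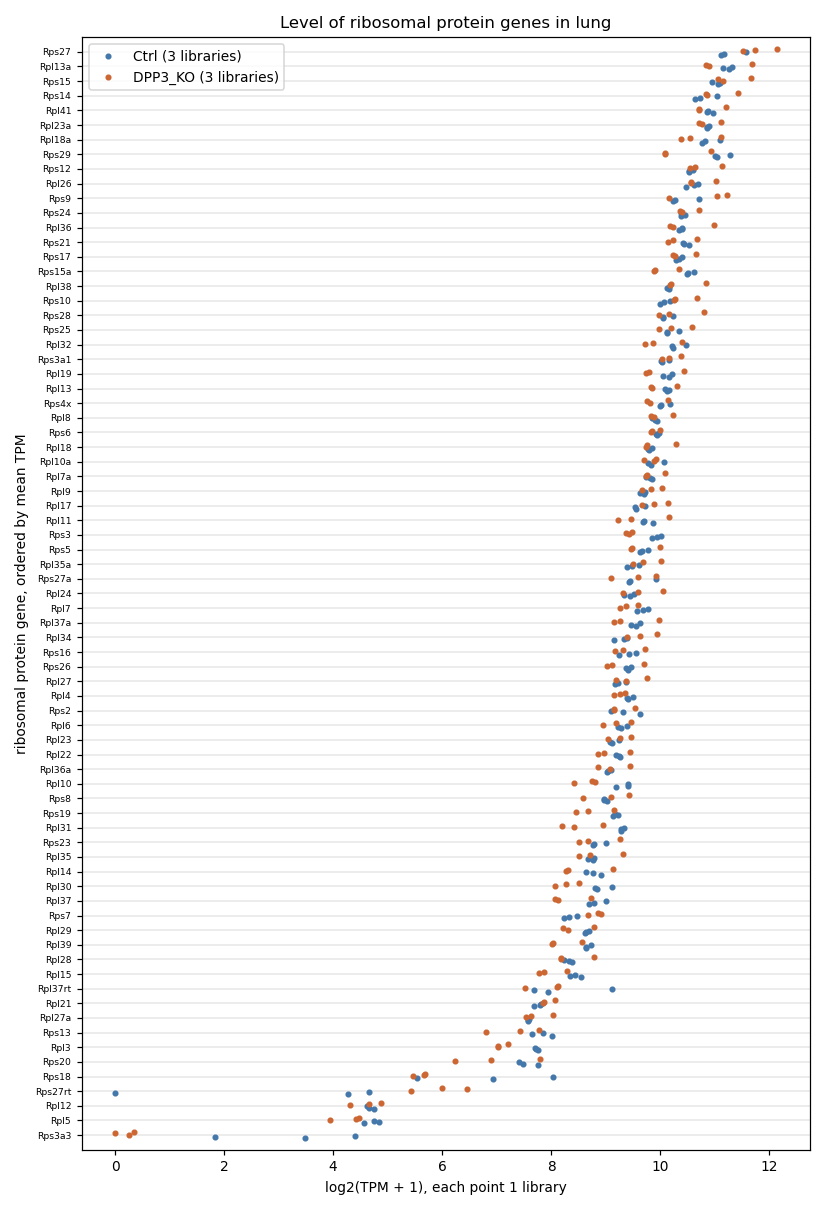
Level of the ribosomal protein genes named in the text, on the log2(TPM + 1) scale, each point 1 library, blue for Ctrl and orange for DPP3_KO. Genes are ordered by mean TPM from Rps3a3 (5.56) at the bottom to Rps27 (3070) at the top. Most genes shown lie between 8 and 12, the blue points are closer together than the orange ones, and Rps3a3, Rps27rt and Rps18 show the widest spread.

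The genes with the lowest listed level had other entries of nearly the same sequence that took far higher values. Rpl5, a large subunit protein that binds the 5S RNA, was listed at 22.6, 27.7 and 25.9 TPM in Ctrl and 14.3, 20.3 and 21.3 TPM in DPP3_KO. Gm15500, which is no member by name and shares 969 of the 1996 stretches of 50 bases of the Rpl5 transcript, stood at a mean of 750.5 TPM. Rpl12, also of the large subunit, was listed between 18.8 and 28.4 TPM, and Gm10275, with 585 of 1193 stretches shared, at a mean of 932.2 TPM. A low value here is the value of 1 entry, and whether it gives the level of the protein's mRNA was not tested. In the same way Rpl27a stood at 202.7 mean TPM beside 1668.3 for Gm7536. Abundant genes had such entries too, with Rps28 at 1211.4 beside 1592.5 for Gm10443 and Rps29 at 1793.8 beside 1019.7 for Gm14303.

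Between the groups the set as a whole hardly moved in TPM. The 76 genes summed to 6.45, 6.43 and 7.04% of all TPM in the Ctrl libraries and 5.73, 6.11 and 8.41% in the DPP3_KO libraries. The groups overlapped, with DPP3_KO 1 and 2 below all Ctrl libraries and DPP3_KO 3 above them. The means were 6.64% ± 0.351 (SD, n = 3) and 6.75% ± 1.45, with p = 1.0 in a two-sided exact permutation test of the log2 sum, which cannot go below 0.1 with 3 against 3. With Scgb1a1 left out of the total the sums were 6.98, 7.15 and 7.59% against 8.04, 7.80 and 11.7%. These did not overlap, and the exact permutation p was 0.1. After median-of-ratios scaling the sum was also higher in every DPP3_KO library, by 0.66 on the log2 scale (exact permutation p = 0.1).

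In the DPP3_KO group the highest library was the same for nearly all genes. DPP3_KO 3 was the highest of its group in 73 of the 76 genes and DPP3_KO 1 the lowest in 56. The median coefficient of variation was 5.81% over the large and 7.33% over the small subunit genes in Ctrl and 20.6% and 22.4% in DPP3_KO, against 19.5% and 26.3% over all genes tested. Other abundant lists also had low values in Ctrl, with 6.83% for translation factors and 8.54% for the remaining ribosomal genes, so this is not particular to the set. Rpl36, of the large subunit, was listed at 1293, 1348 and 1347 TPM in Ctrl and 1199, 1164 and 2030 TPM in DPP3_KO. Only the last of these lay outside the Ctrl range on the high side.

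Gene by gene, few members passed the test, while a large share of all genes fell. A gene is called here when limma on log2(TPM + 1) gave an adjusted p under 0.05. Of the 76 genes, 6 were called lower in DPP3_KO and 0 higher, against 34.0% of all genes tested called lower and 1.38% called higher. Among the 6 is the copy Rps3a3, which reached the minimum in the Ctrl mean only. The median log2 change of the 76 genes was -0.05, with 43 below 0. Groups did not overlap in 12 genes on the lower side and 7 on the higher, against 51.1% and 2.73% of all genes. After median-of-ratios scaling 0 genes were called lower and 1 higher, against 0.882% and 1.9% of all genes, and the median was 0.61, with 71 genes above 0. Without Ctrl replicate 1 none of the 76 was called, and of all genes tested only 18 were called lower. The 6 lower calls became 1 without Ctrl replicate 2 or DPP3_KO replicate 1, 2 without Ctrl replicate 3 and 3 without DPP3_KO replicate 2. In that order, 0.454%, 20.2%, 26.2% and 31.9% of all genes were called lower. Without DPP3_KO replicate 3 the number stayed at 6, against 10.2% of all genes called lower.

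Of the 6 called genes, 4 belong to the large subunit. Rpl31 was listed at 625, 619 and 646 TPM in Ctrl and 342, 292 and 493 TPM in DPP3_KO. It changed by -0.78 ± 0.22 (SE) on the log2 scale (limma, adjusted p = 0.0348), and by -0.12 under median-of-ratios scaling, where it was not called. Rpl10, a large subunit protein that joins late in assembly, was listed at 581, 681 and 682 TPM in Ctrl and 342, 447 and 431 TPM in DPP3_KO. Every DPP3_KO value of both genes lay below every Ctrl value, by -0.68 ± 0.18 for Rpl10 (limma, adjusted p = 0.0299). Rpl3, a core large subunit protein near the peptidyl transferase centre, was listed at 217, 211 and 208 TPM against 129, 130 and 147 TPM. Its log2 change was -0.65 ± 0.15 (limma, adjusted p = 0.0221). Rpl30 was listed at 460, 446 and 552 TPM against 267, 310 and 363 TPM, a log2 change of -0.64 ± 0.19 (limma, adjusted p = 0.0382).

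The 2 small subunit entries called lower were Rps3, a protein of the mRNA entry site, and Rps3a3, a copy of Rps3a1 that GENCODE M21 types as a processed pseudogene. Rps3 was listed at 928, 987 and 1028 TPM in Ctrl and 691, 661 and 718 TPM in DPP3_KO, a log2 change of -0.51 ± 0.16 (limma, adjusted p = 0.0435). Rps3a3 was listed at 10.2, 2.55 and 20.1 TPM in Ctrl and 0.19, 0 and 0.27 TPM in DPP3_KO. Its log2 change of -3.04 ± 0.60 (limma, adjusted p = 0.0176) was the largest fall among the 76 genes. The parent Rps3a1, at 1042, 1033 and 1141 TPM against 1053, 1146 and 1342 TPM, did not pass the test. The calls of Rpl3, Rpl30 and Rps3 turned sign after median-of-ratios scaling, at 0.01, 0.02 and 0.15, and those of Rpl10 and Rpl31 came to -0.02 and -0.12. Rps3a3 kept -2.71 there, with adjusted p = 0.0731.

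Rps7, a small subunit protein, was the 1 gene called higher after median-of-ratios scaling, at 1.12 (limma, adjusted p = 0.0446). As deposited it was listed at 301, 322 and 355 TPM in Ctrl and 407, 479 and 466 TPM in DPP3_KO. These groups did not overlap, and the log2 change was 0.47 ± 0.16 (limma, adjusted p = 0.0607). The largest positive log2 changes were those of Rps27rt, a copy of Rps27, at 2.99 ± 1.14, Rps27 at 0.52 and Rps7, none of them called as deposited. Rps27rt was listed at 18.3, 0 and 24.3 TPM in Ctrl and 42.2, 86.7 and 63.3 TPM in DPP3_KO. After Rps3a3 the largest falls were Rps18 at -1.22 ± 0.56, which was not called, and Rpl31.

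Other genes had groups that did not overlap without passing the test. Rps29, the small subunit protein with the largest such fall, was listed at 2098, 2049 and 2492 TPM in Ctrl and 1090, 1085 and 1948 TPM in DPP3_KO (log2 change -0.74, limma adjusted p = 0.0666). Rps15a was listed at 1445, 1467 and 1565 TPM against 950, 956 and 1307 TPM, and the remaining such genes on the lower side were Rpl15, Rpl39, Rpl4 and Rpl5. Those on the higher side included Rps7, Rps27rt, Rpl34, Rps10, Rpl38 and Rpl21. Rps10 was listed at 1024, 1071 and 1165 TPM against 1221, 1237 and 1640 TPM, with the highest value in DPP3_KO 3, as in most genes.

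Subunits moved nearly alike. The 44 large subunit genes had a median log2 change of -0.07 with 4 called lower, and the 32 small subunit genes one of -0.02 with 2 called lower. The ratio of the large to the small subunit sum was 1.12, 1.10 and 1.06 in Ctrl and 1.04, 0.989 and 1.03 in DPP3_KO. Every DPP3_KO library lay below every Ctrl library, a difference of -0.10 on the log2 scale with an exact permutation p of 0.1, the smallest that 3 against 3 allows. The ratio is taken within a library and does not depend on the scaling.

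Pseudogene entries covered a wide range of levels, and among those above the minimum the closest copies had the highest median. The 13 identical entries had a median of 431 mean TPM, the 29 from 99% to under 100% one of 18.4, and the 14 below 99% one of 3.49. Of the 56 entries, 26 had at least 100 mean TPM, 11 of them identical to the parent. Members were chosen on this level and the entries below the minimum were not compared, so these medians describe the members only. The identical entry Rpl38-ps2 was the exception at the low end, listed at 0 in 5 libraries and at 25.7 TPM in DPP3_KO 2.

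**Figure D2:**
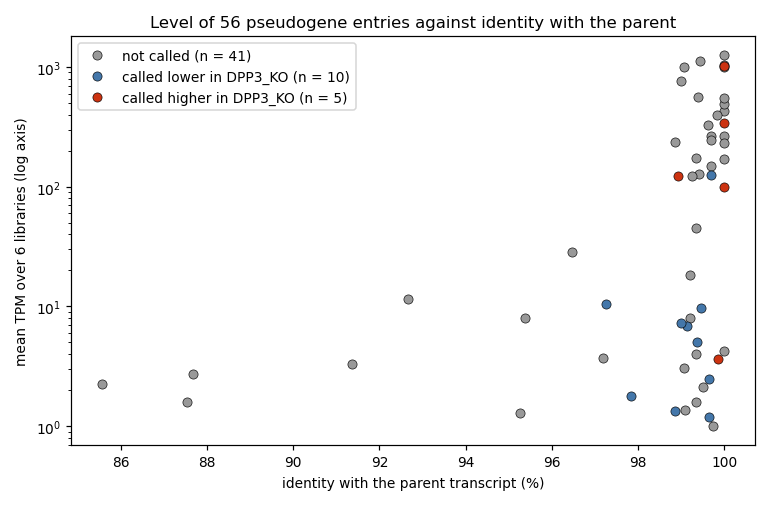
Mean TPM over the 6 libraries (log axis) of the 56 pseudogene entries against percent identity with the parent transcript, coloured by the limma call. The 13 identical entries stand at the right edge with a median of 431, and 8 of the 10 entries called lower have under 10 mean TPM.

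Several entries were listed above their own parent. In all 6 libraries 9 entries exceeded the parent, and 14 did so in at least 1. Rps23-ps1, identical to Rps23, a small subunit protein of the decoding centre, was listed at 1019, 1082 and 1106 TPM in Ctrl and 1153, 1376 and 1850 TPM in DPP3_KO. Rps23 itself was listed at 433, 441 and 513 TPM and at 365, 410 and 615 TPM. Rpl10-ps3, identical to Rpl10 over 740 aligned bases, stood at 151 to 172% of the parent in Ctrl and 210 to 273% in DPP3_KO. The others were Rpl31-ps8, Rpl36a-ps2, Rpl28-ps1, Rpl3-ps1, Rpl34-ps1, Rps13-ps1 and Rps18-ps6. Rps18-ps6, with 5 substitutions, was the furthest above, at 968, 1007 and 1099 TPM in Ctrl and 845, 808 and 1299 TPM in DPP3_KO against 121, 45.4 and 260 TPM and 43.2 to 50.8 TPM for Rps18. For Rps18, a small subunit head protein, the entry named as the gene thus held the lesser part of the family in every library.

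Of the 56 pseudogene entries, 10 were called lower in DPP3_KO (17.9%, background 34.0%) and 5 higher (8.93%, background 1.38%). Their median log2 change was -0.09. Under median-of-ratios scaling 0 were called lower and 3 higher, with a median of 0.50, against 0.882% and 1.9% of all genes called. Without Ctrl replicate 1 none was called in either direction, against 0.115% of all genes lower and 0.00639% higher. There were 7 lower and 0 higher without Ctrl replicate 2, 8 and 3 without Ctrl replicate 3, 6 and 5 without DPP3_KO replicate 1, and 5 and 2 without DPP3_KO replicate 3. In that order, 0.454%, 26.2%, 20.2% and 10.2% of all genes were called lower, and 0.0256%, 0.869%, 0.933% and 0.786% higher. Of the 24 entries under 10 mean TPM, 8 were called lower (33.3%, close to the 34.0% of all genes) and 1 higher, and of the 32 at or above it, 2 lower (6.25%) and 4 higher. The minimum bears on these counts: 16 entries reached it in the Ctrl mean only, and 8 of the 10 called lower are among them, so their direction was fixed by the choice of members. By identity, the 13 identical entries had 0 called lower and 3 higher.

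The entries called lower were nearly all low, uneven within Ctrl and at or near 0 in DPP3_KO. Rpl31-ps9 was listed at 20.9, 3.89 and 33.4 TPM in Ctrl and 0, 0 and 0.21 TPM in DPP3_KO. Its log2 change was -3.86 ± 0.66 (limma, adjusted p = 0.0155). Rps12-ps19 was listed at 21.8, 3.55 and 36.8 TPM in Ctrl and at 0 in all 3 DPP3_KO libraries. Rps12-ps10 was listed at 15.4, 3.66 and 23.9 TPM against 0, 0.45 and 0 TPM, and Rpl19-ps1 at 11.4, 3.29 and 26.6 TPM against 0, 0 and 0.17 TPM. All 4 had their highest value in Ctrl 3 and their lowest Ctrl value in Ctrl 2. All 4 are also among the entries that reached the minimum in the Ctrl mean only. Their parents Rpl31, Rps12 and Rpl19 varied far less within Ctrl, between 619 and 646, 1471 and 1559, and 1061 and 1192 TPM.

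The remaining 6 were Rpl17-ps3, Rpl17-ps5, Rps4x-ps, Rpl3-ps2, Rpl21-ps15 and Rpl35a-ps3. Rpl17-ps5 was listed at 2.29, 0.81 and 4.07 TPM in Ctrl, and Rps4x-ps at 1.44, 1.28 and 8.04 TPM. Both were listed at 0 in every DPP3_KO library. These, Rpl17-ps3 and Rpl3-ps2 reached the minimum in the Ctrl mean only, so their direction was fixed by the choice of members. Rpl21-ps15 differed from these in its even values, 7.92, 6.61 and 6.13 TPM against 3.66, 3.58 and 2.15 TPM, a log2 change of -0.95 ± 0.24 (limma, adjusted p = 0.0251). With median-of-ratios scaling the smallest adjusted p of limma among these 10 was 0.0522, for Rps12-ps10 at -3.15.

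Summed as a group, the low entries had the same order of libraries within Ctrl only. The 24 entries under 10 mean TPM summed to 150.4, 50.8 and 189.1 TPM in Ctrl and 19.1, 65.8 and 50.3 TPM in DPP3_KO. Ctrl 2 lay within the DPP3_KO range, so the groups overlapped (exact permutation p = 0.2). The highest library was Ctrl 3 for 13 of the 24, Ctrl 1 for 5, Ctrl 2 for 1 and a DPP3_KO library for 5. Ctrl 2 was the lowest of the Ctrl libraries in 15. Of all 56 entries, 2, 7 and 3 were listed at 0 in the Ctrl libraries and 21, 12 and 11 in the DPP3_KO libraries. The copies Rps3a3, above, and Rpl39l, a paralogue of Rpl39 listed at 2.97, 1.37 and 6.64 TPM against 0.26, 0.10 and 0.34 TPM, had the same order within Ctrl. Both reached the minimum in the Ctrl mean only. Of the 56 entries, 16 reached the minimum in the Ctrl mean only. The split of these zeros, ranks and sums between the groups was thus partly fixed by the choice of members.

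Of 38 genes with related entries of other names, the summed related entries had the order Ctrl 3, Ctrl 1, Ctrl 2, with all DPP3_KO libraries lowest, in 9. In the other 29 they did not. Only related entries with a mean of at least 1 TPM were taken, so those at 0 throughout DPP3_KO passed through Ctrl alone. Gm13408 counts under both Rps3a1 and Rps3a3, so the 9 are not all separate entries. The share of all genes with this order was not computed. The 2 related entries that share stretches with Rpl37a summed to 81.9, 11.9 and 145.5 TPM in Ctrl and to 0 in all 3 DPP3_KO libraries, while Rpl37a was listed at 750, 706 and 792 TPM and 570, 615 and 1006 TPM. Gm4468, related to Rpl37rt, was listed at 62.1, 18.2 and 153.9 TPM in Ctrl and at 0 in DPP3_KO. In the opposite direction, Gm12918, related to Rpl13, was listed at 4.2, 7.8 and 0 TPM in Ctrl and 113.6, 78.0 and 226.8 TPM in DPP3_KO. These 3 cases were chosen after their values were seen, and what sets Ctrl 1 and Ctrl 3 apart was not tested.

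**Figure D3:**
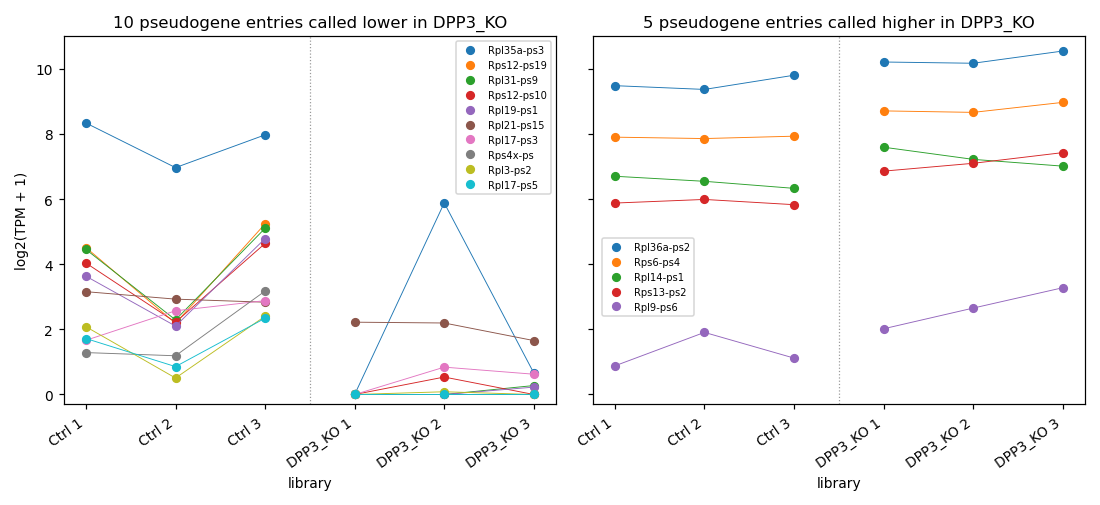
log2(TPM + 1) in each of the 6 libraries of the 10 pseudogene entries called lower (left) and the 5 called higher (right), with thin lines joining the points of 1 entry within a group. On the left most entries are high in Ctrl 1 and Ctrl 3, lower in Ctrl 2 and near 0 in DPP3_KO; on the right the groups are separate for each entry.

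Of the 5 entries called higher, 4 had over 10 mean TPM and 3 were identical to the parent. Rps13-ps2 was listed at 57.8, 62.5 and 55.8 TPM in Ctrl and 115, 136 and 171 TPM in DPP3_KO. Its log2 change was 1.23 ± 0.19 as deposited (limma, adjusted p = 0.0145) and 1.88 under median-of-ratios scaling (limma, adjusted p = 0.0171). The parent Rps13 went the other way in level, at 259, 201 and 229 TPM against 111, 171 and 218 TPM, and did not pass the test. As the sequences show, no base separates the 2 over the 453 bases of Rps13-ps2.

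Rps6-ps4, identical to Rps6 over 750 bases, was listed at 238, 231 and 243 TPM in Ctrl and 417, 404 and 500 TPM in DPP3_KO. It changed by 0.88 ± 0.16 (limma, adjusted p = 0.0164), and by 1.54 under median-of-ratios scaling (limma, adjusted p = 0.0241). Rps6 was listed at 982, 969 and 1007 TPM against 910, 924 and 1027 TPM, groups that overlapped. Rps6-ps4 as a share of Rps6 was among the tightest values in the set, at 24.3, 23.8 and 24.1% in Ctrl and 45.9, 43.7 and 48.6% in DPP3_KO.

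Rpl36a-ps2, identical to Rpl36a, a large subunit gene of the X chromosome, was listed at 714, 659 and 892 TPM in Ctrl and 1182, 1151 and 1493 TPM in DPP3_KO. The log2 change was 0.76 ± 0.20 (limma, adjusted p = 0.0291), and 1.42 with adjusted p = 0.0540 under median-of-ratios scaling. It lies on the same strand inside Ddah1. Rpl14-ps1, with 4 substitutions and 3 gap positions, was listed at 103, 92.4 and 79.4 TPM against 192, 148 and 128 TPM. It passed the test as deposited (log2 change 0.75, limma adjusted p = 0.0328) and with median-of-ratios scaling, where limma gave an adjusted p of 0.0241. The low entry Rpl9-ps6 was listed at 0.84, 2.75 and 1.17 TPM against 3.05, 5.29 and 8.70 TPM.

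Other abundant entries lay apart between the groups without passing the test. Rpl34-ps1, with 2 substitutions, was listed at 844, 916 and 953 TPM in Ctrl and 1072, 1262 and 1745 TPM in DPP3_KO, and its parent Rpl34 at 568, 642 and 675 TPM against 675, 790 and 978 TPM. Rps24-ps3, with 4 substitutions, was listed at 592, 557 and 707 TPM against 764, 832 and 1098 TPM, while Rps24 overlapped, at 1335, 1400 and 1336 TPM against 1356, 1315 and 1677 TPM. Rps23-ps1, given above, and Rps2-ps6, at 14.8 to 25.8 TPM against 29.9 to 45.0 TPM, were also higher in every DPP3_KO library.

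Further identical entries overlapped between the groups. Rpl10a-ps1 was listed at 425, 445 and 446 TPM in Ctrl and 351, 410 and 507 TPM in DPP3_KO, and Rpl15-ps3 at 269, 262 and 314 TPM against 204, 221 and 312 TPM. Rpl28-ps1 was listed at 506, 414 and 418 TPM against 360, 496 and 753 TPM. Rpl27-ps3 was the least even of them, at 222, 250 and 27.7 TPM in Ctrl and 65.5, 495 and 336 TPM in DPP3_KO, while its parent Rpl27 kept between 579 and 869 TPM. The 2 entries of other names that share stretches with Rpl27, Gm11518 the higher, were uneven too. They summed to 261.0, 251.4 and 459.3 TPM in Ctrl and 387.0, 68.2 and 335.5 TPM in DPP3_KO. Of the entries with changed bases at over 100 mean TPM, Rpl3-ps1, Rps7-ps3, Rps2-ps10, Rps18-ps5 and Rps19-ps6 overlapped between the groups as well. Rpl3-ps1 was listed at 463, 454 and 428 TPM against 308, 313 and 437 TPM, so that only DPP3_KO 3 reached the Ctrl range that its parent Rpl3 did not reach.

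Among the low entries that were not called, several had values in few libraries. Rpl39-ps was listed at 24.1 TPM in Ctrl 1 and at 0 in the other libraries. Rpl12-ps2, at 91.36% identity, was listed at 6.09, 0 and 13.7 TPM in Ctrl and at 0 throughout DPP3_KO, and Rpl37-ps1, at 2.27 mean TPM, had the same order of libraries. Rpl34-ps2, Rpl9-ps8 and Rps13-ps4 also had their highest value in Ctrl 3 and their lowest Ctrl value in Ctrl 2. Rps26-ps1, at 1.14, 0.40 and 2.84 TPM against 1.57, 6.30 and 5.99 TPM, and Rpl36-ps12, at 10.5, 14.4 and 10.9 TPM against 23.4, 13.5 and 37.9 TPM, stood higher on average in DPP3_KO with overlapping groups. Rpl22-ps1, Rpl37a-ps2, Rps2-ps13, Rps12-ps9, Rps12-ps1, Rps19-ps3, Rps18-ps3 and Rpl7a-ps11 were not called either.

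The 4 Rpl35a entries of the same sequence were given very different values. Rpl35a-ps3 was listed at 322, 124 and 250 TPM in Ctrl and 0, 58.0 and 0.58 TPM in DPP3_KO, and was called lower at -5.58 ± 1.42 (limma, adjusted p = 0.0263), the largest fall among all members. Rpl35a-ps4 was listed at 197, 0.10 and 171 TPM in Ctrl and 519, 398 and 318 TPM in DPP3_KO, with groups apart in the opposite direction. Rpl35a-ps2 was listed at 121, 193 and 219 TPM against 0, 78.6 and 284 TPM, and Rpl35a-ps6 at 178, 255 and 147 TPM against 0, 267 and 634 TPM. In DPP3_KO 1 the whole amount of these 4 entries stood under Rpl35a-ps4.

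Summed, these 4 entries gave 818, 572 and 787 TPM in Ctrl and 519, 802 and 1237 TPM in DPP3_KO. The groups overlapped, and the log2 difference was 0.16 (exact permutation p = 0.9). The 4 transcripts hold the same bases, so the call of Rpl35a-ps3 is a call on 1 of 4 entries that their sequence does not tell apart. The parent Rpl35a was listed at 672, 711 and 786 TPM and 723, 822 and 1035 TPM, and with its 5 entries at 1494, 1282 and 1576 TPM against 1242, 1624 and 2272 TPM.

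**Figure D4:**
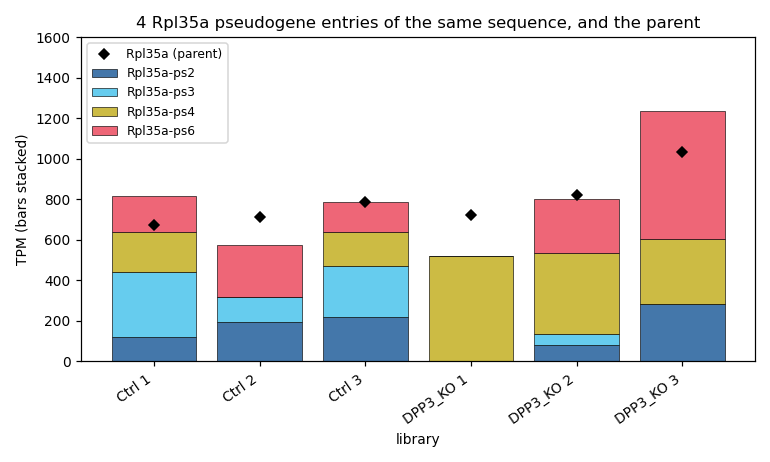
TPM of the 4 Rpl35a pseudogene entries of the same sequence, stacked, in each of the 6 libraries, with the parent as a black diamond. The share of each entry changes from library to library, and in DPP3_KO 1 the bar of 519 is Rpl35a-ps4 alone, while the stacked sum overlaps between the groups.

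As a share of their parents the pseudogene entries stood higher in DPP3_KO in the sum, but not in the median over entries. The 56 entries summed to 50.5, 48.9 and 50.5% of their 36 parents in Ctrl and 54.8, 59.9 and 59.5% in DPP3_KO. The lowest DPP3_KO library lay above the highest Ctrl library, and the SD over 3 libraries was 0.943 and 2.84 percentage points. The log2 difference was 0.22 with a two-sided exact permutation p of 0.1, the smallest possible here. Entry and parent are read in the same library, so scaling does not touch this share. The median over the 56 entries of the log2 ratio went the other way, by -0.91 (exact permutation p = 0.3), a measure in which low entries weigh as much as high ones. The 16 entries that reached the minimum in the Ctrl mean only count in this median, and their fall was fixed by the choice of members.

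The share was higher in both identity sets. The 13 identical entries summed to 69.9, 69.7 and 68.2% of their parents in Ctrl and 78.4, 89.1 and 82.4% in DPP3_KO. The 43 others summed to 33.3, 31.1 and 34.1% against 34.6, 36.5 and 39.1%. Both sets were apart between the groups (exact permutation p = 0.1 each), and the difference between the sets was not tested. Entry by entry, the share of the parent was higher in every DPP3_KO library for 17 entries, lower in every one for 13 and overlapping for 26. Among the 13 are entries that reached the minimum in the Ctrl mean only, such as Rps12-ps19 and Rpl31-ps9. Their fall was fixed by the choice of members, and no share over all genes is at hand for these counts. Rps13-ps2 went from 22.3, 31.1 and 24.3% of Rps13 to 104, 79.7 and 78.4%. Rpl31-ps8 went from 151, 168 and 164% of Rpl31 to 269, 305 and 220%, with its own level, at 944, 1040 and 1060 TPM against 918, 891 and 1086 TPM, overlapping between the groups. Rps16-ps2, identical to Rps16, did not follow, at 104, 82.8 and 77.1% against 67.9, 66.2 and 81.1%.

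Adding each parent to its entries changed which families lay apart between the groups. Related entries of other names were not added, so a family sum can leave out part of a family. Over the 36 families the log2 change of the parents alone ran from -1.22 to 0.47 with an SD of 0.37, and that of the family sums from -0.97 to 0.51 with an SD of 0.31. Without Rps18 both SDs were 0.32. Groups were apart for 6 parents on the lower side and 4 on the higher, and for 4 and 6 family sums, against 51.1% and 2.73% of all genes. Rps18 went from -1.22 alone to -0.16 with its 3 entries, at 1234, 1214 and 1522 TPM in Ctrl and 1006, 1016 and 1605 TPM in DPP3_KO. Rps13 went from -0.51 to 0.11 and Rpl10 from -0.68 to -0.28, where the groups overlapped. Rps7 went from 0.47 to 0.14 once Rps7-ps3, with 4 substitutions, was added, and its groups then overlapped as well.

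In other families the sum moved further than the parent. Rpl36a went from 0.08 to 0.51, with the family at 1233, 1187 and 1436 TPM in Ctrl and 1724, 1617 and 2193 TPM in DPP3_KO. Rpl30 went from -0.64 to -0.97, since Rpl30-ps9 fell in level too, from 254, 143 and 237 TPM to 69.7, 0.01 and 56.3 TPM, though that entry was not called. Rpl31, Rpl3, Rpl30 and Rpl39 were the 4 families below all Ctrl libraries in every DPP3_KO library, and Rpl21, Rpl34, Rpl36a, Rpl38, Rps24 and Rps6 the 6 above. Of the 6 called genes, Rpl3, Rpl30 and Rpl31 thus kept separate groups in the family sum, Rpl10 did not, and Rps3 and Rps3a3 are no parents of a member entry.

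**Figure D5:**
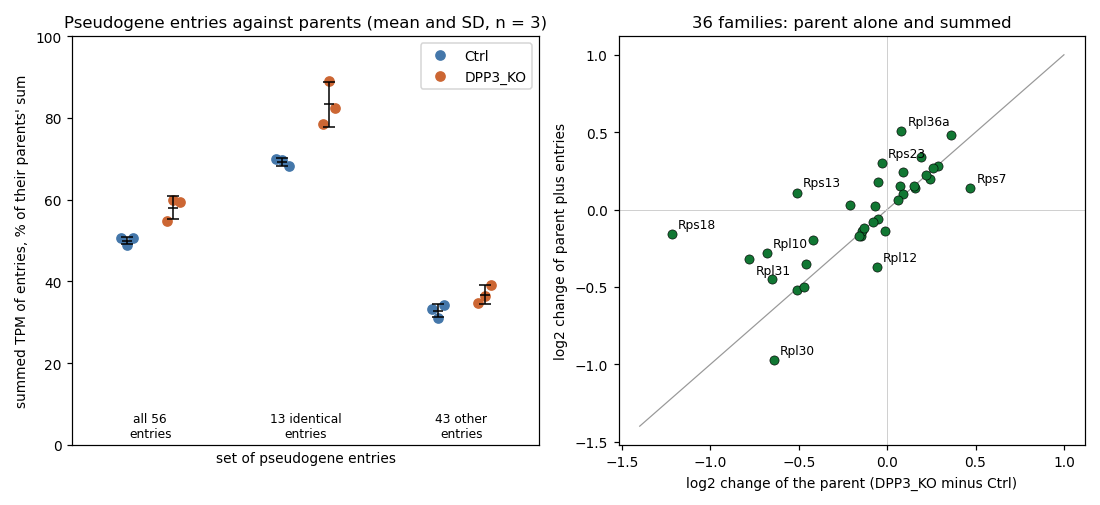
Left, summed TPM of all 56 pseudogene entries, of the 13 identical and of the 43 others as a percentage of their parents' sum in each library, with the mean and SD of 3 libraries. Right, log2 change (DPP3_KO minus Ctrl) of parent plus entries against that of the parent alone for 36 families, with the line of equality; Rps18 moves from -1.22 to -0.16 and Rpl36a from 0.08 to 0.51.

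Genes around the ribosome were described from lists in the same way, beside the 34.0% of all genes called lower. The 7 remaining ribosomal genes (among them Rplp0, Rplp1, Rplp2, Rpsa, Fau and Rack1) had a median log2 change of -0.15 and none was called. Rplp2, a stalk protein, came nearest, at 515, 473 and 434 TPM against 558, 768 and 1108 TPM (limma, adjusted p = 0.0673). Of 7 tested paralogues with an l in the name, Rpl39l alone was called, lower. Its mean reached the 1 TPM minimum in Ctrl only, at 3.66 against 0.233 TPM in DPP3_KO, so that direction was fixed by the filter. Of 39 translation factors 19 were called lower and 0 higher, with a median of -0.54. The cap-binding protein Eif4e, at 46.3, 46.9 and 46.0 TPM against 17.1, 18.9 and 10.7 TPM, was the 1 of them also called lower after median-of-ratios scaling (-0.92, limma adjusted p = 0.0481). Eif3l, Eif3c and Eif1ax had the next smallest p.

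Of 44 ribosome biogenesis genes 22 were called lower and 0 higher, with a median of -0.63, and of 20 genes of translation control 11 were called lower, with a median of -0.81. The median of all genes was -0.60. After median-of-ratios scaling the 2 medians were 0.01 and -0.20, beside -0.03 for all genes, and no gene of these lists was called. Nmd3, an export adapter of the large subunit, was listed at 26.4, 22.8 and 27.6 TPM against 11.2, 10.5 and 11.1 TPM. The kinase Mtor, which acts on the pyrimidine tract mRNAs, was listed at 12.3, 15.8 and 14.8 TPM against 7.49, 5.81 and 4.24 TPM. Pes1, Ltv1, Ubtf, Eif2ak4, Tsc2 and Eif4ebp2 were also among the called genes with the smallest p. Of 78 mitochondrial ribosomal protein genes, which encode the separate ribosome of that organelle, 3 were called lower (Mrps5, Mrps24 and Mrpl49) and 0 higher, with a median of -0.27, and Mrps12 was called higher after median-of-ratios scaling.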

How the data were processed

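RNA sequencing of total lung RNA gave 1 library for each of 3 Ctrl and 3 DPP3_KO samples, grouped by their titles. The authors deposited TPM for 56980 mouse entries with identifiers, symbols and lengths, and all value columns matched a sample (0 unused). Per the submitters' processing notes, HISAT2, StringTie, RSEM and GRCm39 were used, with no roles stated. Not given in the sources used here were the annotation release, the strand setting and the handling of human reads and of reads matching several entries. TPM keeps no depth, so counting intervals and floors could not be had.

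The 15650 entries with a mean of at least 1 TPM were tested on log2(TPM + 1) with limma 3.58.1 in R 4.3.3 (intensity trend, two-sided, Benjamini-Hochberg over all entries tested, threshold 0.05). A log2 change on this scale understates the change of low entries. Single values per library were tested by exact permutation. The fit was tested on simulated data. Some items are not reported here. Pseudogene transcripts were aligned to protein-coding parent transcripts of GENCODE M21 (GRCm38, an earlier build than the deposited table), and start sites came from RefSeq (GRCm38.p6).

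The members, gene lists and tests were chosen with earlier results of these data known. Named with values are pseudogene entries and parents, other members called as deposited or after median-of-ratios scaling, the 5 highest and 5 lowest genes, the 3 largest changes in each direction, and up to 4 called genes of each list; Rpl36, Rpl27a, Rps28, Rps29, Lamp3, Rps15a, Rps10, Rplp2 and entries of other names were chosen after their values were seen. Alternatives were pseudocounts of 0.1 and 5, no filter, a 5 TPM minimum, quantile normalization, median-of-ratios scaling, rescaling without Scgb1a1, removal of each library's trend with gene length (lowess span 0.3), limma without the trend or with sample weights, a replicate block, and each library left out.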

Additional observations from a re-analysis of the deposited data

How the results depend on the processing

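TPM is relative, and Scgb1a1 differs between the groups, and most calls moved with the scaling. Ribosomal protein genes called lower fell from 6 to 0 under median-of-ratios scaling, quantile normalization and removal of the length trend, to 1 without Scgb1a1 and to 2 with no filter. Genes called higher rose from 0 to 1 under those 4 scalings and with a pseudocount of 5, and to 2 with sample weights. Pseudogene entries called lower fell from 10 to 0 under the first 3 scalings, to 4 without Scgb1a1, and to 6 with no filter or with a 5 TPM minimum. Entries called higher came to 3 after median-of-ratios scaling and 2 with no filter, against 5. Over all genes tested the share called lower fell as well, from 34.0% to 0.882%, 0.895% and 0.486% under the first 3 scalings. It was 2.7% without Scgb1a1, 10.4% with no filter and 44.9% with a 5 TPM minimum. The share called higher ran from 0.522% with no filter to 2.09% under quantile normalization, when all libraries were kept. The median log2 change of the ribosomal protein genes, -0.05, came to 0.61 under median-of-ratios scaling, 0.47 once the length trend was removed and 0.27 without Scgb1a1. The entry to parent share, 0.22, came to -0.91 as a median over entries, in which the fall of 16 entries was fixed by the choice of members. After median-of-ratios scaling Rpl3 came to 0.01, Rpl30 to 0.02, Mrps24 to 0.01 and Rps3 to 0.15. Once the length trend was removed Rps3 came to 0.05, Eif4ebp2 to 0.06 and Mrps5 to 0.04. The cause of these changes was not tested.

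Leaving out 1 library gave 0 to 6 genes called lower, 0 higher, 0 to 9 entries called lower and 0 to 5 higher as deposited, all 0 without Ctrl replicate 1. After median-of-ratios scaling the ranges were 0 to 1, 0, 0 to 7 and 0 to 2, and the median (-0.19 to 0.07 as deposited) was 0.37, 0.54, 0.60, 0.72, 0.74 and 0.78. Over all genes tested, 0.115% to 31.9% were called lower and 0.00639% to 0.933% higher as deposited. After median-of-ratios scaling these shares were 0.0383% to 1.08% and 0.115% to 1.09%. The summed TPM of the ribosomal protein genes, 0.00 with all libraries, ran from -0.17 without DPP3_KO replicate 3 to 0.11 on the log2 scale, the entry to parent share from 0.19 to 0.26. Under median-of-ratios scaling with 1 library left out, the genes that turned positive were Rpl10 (0.00, 0.06 and 0.11), Rpl3 (0.03, 0.04, 0.05 and 0.13), Rpl30 (0.12, 0.14 and 0.16), Rpl31 (0.14), Rps3 (0.03, 0.10, 0.12, 0.16, 0.23 and 0.28), Mrps24 (0.02, 0.05, 0.09 and 0.20) and Mrpl49 (0.04 and 0.10).

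The replicate numbers do not pair the samples: same-numbered deviations correlated at 0.271, -0.206 and 0.147, and Ctrl 3 correlated better with DPP3_KO 2 (0.408). With the replicate block 5 genes were called lower and 0 higher, and 10 and 5 entries, against 30.2% and 1.35% of all genes. The depth is unknown, so what it limits could not be measured.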
